A study of Bos taurus with 6 samples.

Results

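MHC class II molecules present peptides from endocytosed proteins to CD4+ T cells. An alpha and a beta chain assemble in the endoplasmic reticulum around the invariant chain, CD74, which blocks the peptide groove until lysosomal proteases cut it down to a short fragment. The DM heterodimer then exchanges that fragment for an antigenic peptide, and DO restrains DM. Transcription of these genes is driven together by the transactivator CIITA, mainly in dendritic cells, macrophages and B cells, and interferon gamma can induce it in other cells. In the ovary, class II molecules are a familiar feature of the macrophages around and between follicles.

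The genes described here are those whose symbol in the platform annotation starts with BOLA-D (bovine leukocyte antigen, class II; in any case, since 1 is written BoLA-DRB3), or is CD74 or CIITA. The rule found 13 probes among the 43794 gene probes of the array, 1 for each of 13 genes, and 0 for CIITA. They are BOLA-DRA, BOLA-DRB3 and BOLA-DRB2 of the DR group, BOLA-DQA1, BOLA-DQA2, BOLA-DQA5 and BOLA-DQB of the DQ group, BOLA-DYA and BOLA-DYB, BOLA-DMA and BOLA-DMB, BOLA-DOB, and CD74. Of these genes, 12 were found in the RefSeq gene table of the assembly ARS-UCD2.0. In its order the DY, DO and DM genes form 1 block and the DQ and DR genes another on the same chromosome, with 242 protein-coding genes between the blocks. CD74 lies on another chromosome. The class II genes are paralogs, the DQ and DRB genes are highly polymorphic, and the probe sequences were not used here, so cross-hybridisation and allele differences cannot be told apart from transcript level.

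RNA came from granulosa cells of dairy cows after calving, the cells that line the follicle and make estradiol. The vitamin cows were given folic acid at 320 mg and vitamin B12 at 10 mg by intramuscular injection, and the control cows physiological saline at 0.9%. Treatment began 3 weeks before calving and ended on day 57 ± 2 post-calving. Cells were aspirated 66 ± 2 h after a second prostaglandin F2 alpha injection from preovulatory follicles of at least 12 mm, on day 57 ± 3 or, where none was present, on day 71 ± 3. Each of 6 two-colour arrays set vitamin RNA against saline RNA, as 3 biological replicates with a dye-swapped pair of arrays each; whether a replicate is a cow or a pool is not stated, so p-values measure the spread between these 3 ratios.

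Per channel, 53.1% to 68.7% of the gene probes exceeded the negative-control spots, and 26713 passed the detection filter and were tested. The saline sample of replicate 1 stood apart from the other 5 samples. The summed intensity of 12 granulosa markers was 33033 there, against 177408 to 258215 in the others, and that of 13 macrophage and monocyte markers was 66204, against 2100 to 7822. The inhibin subunits INHBA and INHA were saturated in 4 and 1 of 12 readings. Without them the granulosa sum was 23678 in that saline sample, 45641 in the vitamin sample of replicate 1 and 111095 to 139168 in the others. CYP19A1, the aromatase, was at 7.40 log2 units in that sample and at 10.99 to 15.70 in the others. FSHR, the FSH receptor, was detected in all 12 readings, at 8.36 log2 units in that sample and at 9.01 to 10.24 in the others. The arrays of replicate 1 and those of replicates 2 and 3 were on different slides. The median ratio of the class II genes and CD74, most single-gene means and the likeness to CD74 are therefore given with and without replicate 1. So is the count of genes with a wider saline range. Most other counts, the F test between replicates and the counts over gene lists are given only with it.

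The class II genes and CD74 differed widely between vitamin and saline cells within single replicates, but in opposite directions. In replicate 1 all 10 tested genes were lower in vitamin cells, against 49.4% of all probes tested, with a median log2 ratio of -2.35. In replicate 2, 9 of the 10 were higher in vitamin cells, against 49.3% of all probes, with a median of 1.07. In replicate 3, 6 of 10 were above 0, against 50.4% of all probes, with a median of 0.05. Over the 3 replicates, 0 of 10 passed the test of a mean difference between the groups by limma at an adjusted p under 0.05, and 0% of all probes did.

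**Figure D1:**
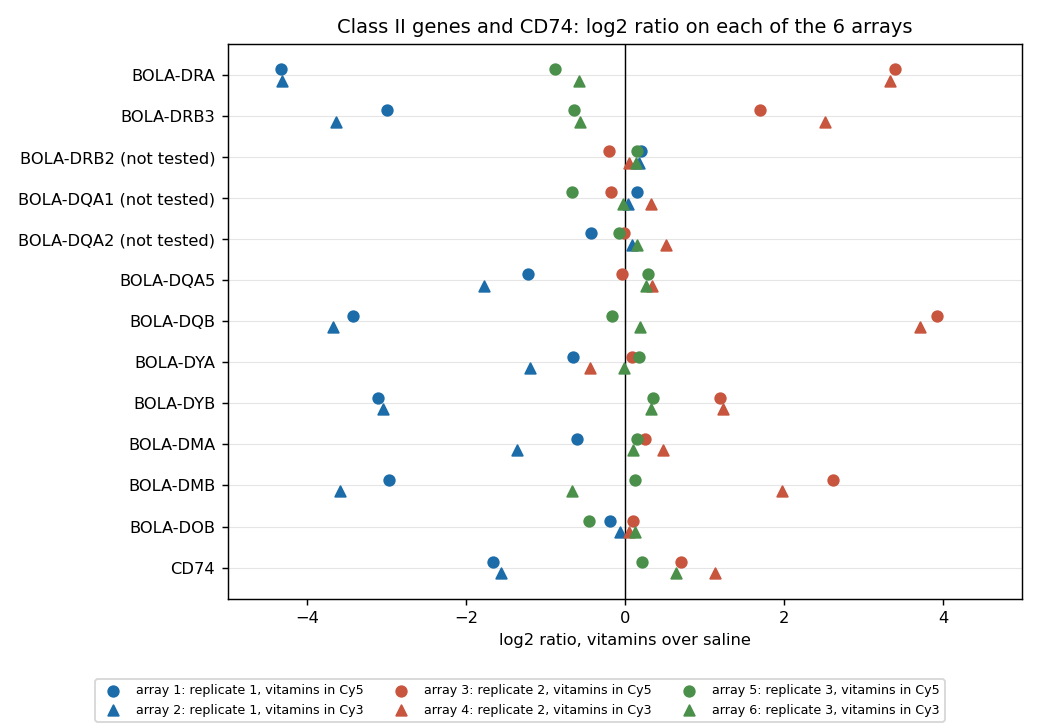
Log2 ratio of vitamins over saline (horizontal axis) for each of the 13 genes on each of the 6 arrays; colours mark the replicates, circles the arrays with vitamins in Cy5 and triangles those with vitamins in Cy3. For BOLA-DRA the blue symbols of replicate 1 lie at -4.34 and -4.31, and the red ones of replicate 2 at 3.40 and 3.33.

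BOLA-DRA (probe EMBV3_43402) encodes the DR alpha chain, which pairs with every DR beta chain. Its log2 ratio was -4.34 and -4.31 on the arrays of replicate 1, 3.40 and 3.33 on those of replicate 2, and -0.88 and -0.58 on those of replicate 3. The 2 dyes thus gave nearly the same ratio in each replicate, while replicates 1 and 2 had opposite signs. The transcript was 20.1-fold lower in vitamin than in saline cells of replicate 1, and 10.3-fold higher in vitamin cells of replicate 2, where 1 of the 2 saline readings was not above the negative controls. Its normalised log2 intensity was 10.17, 10.70 and 9.87 in the vitamin samples of replicates 1, 2 and 3, against 14.50, 7.33 and 10.61 in the saline samples. The vitamin samples were alike. Of the saline samples, 1 lay above them, 1 below them and 1 within their range, so the groups overlapped. The raw intensities ran the same way, with 956 and 1216 in vitamin channels against 25845 and 22709 in saline channels of replicate 1, and 1921 and 1661 in vitamin channels against 196 and 129 in saline channels of replicate 2. The saline reading of 129 is the one not above the negative controls, so the level there is in part a bound. The mean log2 ratio was -0.56 ± 3.85 (SD, n = 3), with a 95% confidence interval of -4.67 to 3.54 and an unadjusted p = 0.728 by limma. Without replicate 1 it was 1.32.

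BOLA-DRB3 (EMBV3_33654) encodes the polymorphic beta chain of the main DR molecule of cattle. Its log2 ratios were -3.00 and -3.64 in replicate 1, 1.70 and 2.51 in replicate 2, and -0.65 and -0.57 in replicate 3. The order of the replicates was that of BOLA-DRA. Its normalised log2 intensity was 12.21, 11.88 and 11.48 in the vitamin samples, against 15.53, 9.77 and 12.09 in the saline samples. Here too the saline samples included both the highest and the lowest. The mean log2 ratio was -0.61 ± 2.71 (SD, n = 3; 95% confidence interval -3.51 to 2.30; unadjusted p = 0.601 by limma), and 0.75 without replicate 1. BOLA-DRB2 (EMBV3_28617), another DR beta gene, was above the negative controls in 4 of 12 readings and was not tested; its 6 ratios lay between -0.21 and 0.20.

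Among the DQ genes, BOLA-DQB (EMBV3_10780), a DQ beta chain, had the widest ratios. Its log2 ratios were -3.42 and -3.67 in replicate 1, 3.93 and 3.71 in replicate 2, and -0.16 and 0.19 in replicate 3. It was 11.7-fold lower in vitamin cells of replicate 1 and 14.1-fold higher in those of replicate 2. The saline raw intensities of replicate 2 were 195 and 235, above the negative controls but near the detection limit. Its normalised log2 intensity was 8.92, 11.56 and 8.16 in the vitamin samples, against 12.46, 7.74 and 8.14 in the saline samples. Thus 1 sample was high in each group, vitamin replicate 2 and saline replicate 1, and this was the only 1 of the 10 tested genes whose vitamin samples spanned more than 2 log2 units (3.40), against 4.14% of all probes. The mean log2 ratio was 0.09 ± 3.68 (SD, n = 3; 95% confidence interval -3.83 to 4.02; unadjusted p = 0.951 by limma). Its sign turned with median centring (-0.05), with the slide as a block (-0.82) and in the authors' deposited table (-0.06), and it was 1.92 without replicate 1.

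BOLA-DQA5 (EMBV3_35757), a DQ alpha chain, had a normalised log2 intensity of 7.55, 7.62 and 7.77 in the vitamin samples, against 9.05, 7.48 and 7.49 in the saline samples. Only the saline sample of replicate 1 stood above the rest. Its mean log2 ratio was -0.36 ± 0.99 (SD, n = 3), and 0.21 without replicate 1. BOLA-DQA1 (EMBV3_06732) and BOLA-DQA2 (EMBV3_29376), further DQ alpha genes, were above the negative controls in 1 and 4 of 12 readings and were not tested. BOLA-DQA1 was not above them in any saline reading, so its level there is only bounded. The highest raw intensity of these dim probes was 219 for BOLA-DQA1, 278 for BOLA-DQA2 and 260 for BOLA-DRB2. A probe annotated with the older symbol BLA-DQB, now BOLA-DQB1, falls outside the rule and was looked up after the other values were seen. Its replicate ratios of -3.48, 1.58 and -0.04 resembled those of BOLA-DQB in sign in replicates 1 and 2.

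The DY genes are found in ruminants and have been linked to dendritic cells in cattle. BOLA-DYB (EMBV3_25868), the beta chain, had log2 ratios of -3.11 and -3.05 in replicate 1, 1.20 and 1.23 in replicate 2, and 0.35 and 0.32 in replicate 3. The 2 arrays of a replicate differed by at most 0.05, the closest agreement among the 10 tested genes. Its normalised log2 intensity was 8.38, 8.83 and 7.85 in the vitamin samples, against 11.46, 7.61 and 7.52 in the saline samples. One saline sample was high, and the other 2 were below all vitamin samples. Those 2 had raw intensities of 178 to 227, near the detection limit. The mean log2 ratio was -0.51 ± 2.27 (SD, n = 3; 95% confidence interval -2.95 to 1.93), and 0.77 without replicate 1. BOLA-DYA (EMBV3_21343), the alpha chain, was at 8.11, 7.52 and 7.55 in the vitamin samples, against 9.03, 7.70 and 7.47 in the saline samples. Its replicate ratios were -0.93, -0.18 and 0.08, and it was the single tested gene of the set not above 0 in replicate 2. The 2 arrays of that replicate differed in sign, at 0.08 and -0.44. Raw intensities there were only 174 and 278 in vitamin channels and 183 and 196 in saline channels.

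**Figure D2:**
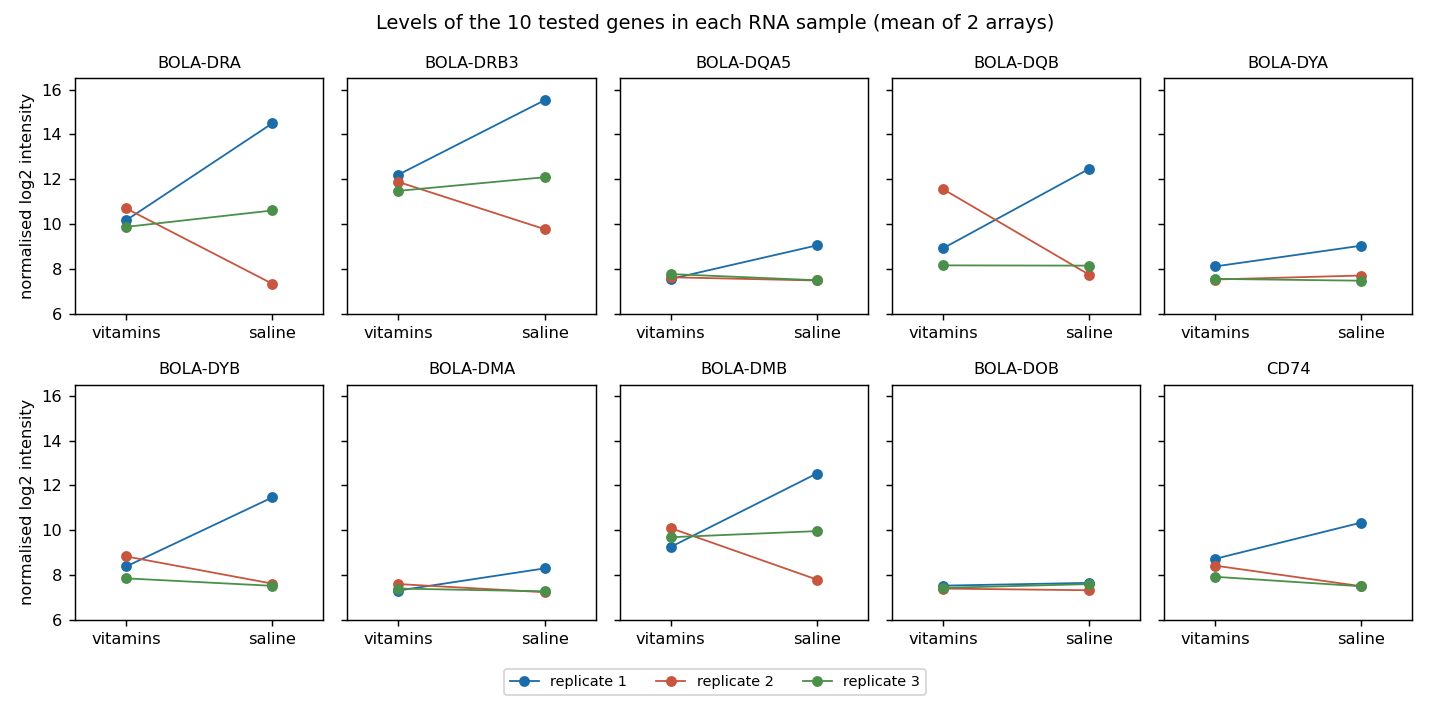
Normalised log2 intensity (vertical axis) of the 10 tested genes in the vitamin and the saline RNA of each replicate; lines join the 2 samples hybridised together, and each point is the mean of 2 arrays. The saline sample of replicate 1 (blue, right) is the highest of the 6 for every gene, and the saline samples of BOLA-DRA span 7.16 log2 units, against 0.82 for its vitamin samples in the left column.

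The peptide exchange factor was represented by both of its chains. BOLA-DMB (EMBV3_39657), the DM beta chain, had log2 ratios of -2.97 and -3.59 in replicate 1, 2.62 and 1.97 in replicate 2, and 0.12 and -0.67 in replicate 3. Its normalised log2 intensity was 9.25, 10.09 and 9.69 in the vitamin samples, against 12.53, 7.80 and 9.96 in the saline samples. As for the DR chains, the 3 vitamin samples lay between the extremes of the saline samples. The mean log2 ratio was -0.42 ± 2.79 (SD, n = 3; 95% confidence interval -3.40 to 2.57), and 1.01 without replicate 1. BOLA-DMA (EMBV3_42582), the DM alpha chain, was detected in 7 of 12 readings, and its replicate ratios were -0.99, 0.36 and 0.12. BOLA-DOB (EMBV3_38670), the beta chain of the DM inhibitor, had 6 array ratios between -0.45 and 0.12. Its mean of -0.07 ± 0.13 (SD, n = 3) had the narrowest interval of the set (-0.48 to 0.34), and its highest raw intensity was 297, so it was measured near the detection limit.

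CD74 (EMBV3_38948), the invariant chain, had log2 ratios of -1.67 and -1.57 in replicate 1, 0.70 and 1.14 in replicate 2, and 0.21 and 0.64 in replicate 3. Its normalised log2 intensity was 8.72, 8.42 and 7.92 in the vitamin samples, against 10.34, 7.50 and 7.50 in the saline samples. One saline sample was above all vitamin samples and the other 2 were below them. Those 2 had raw intensities of 145 to 242, near the detection limit. CD74 was 3.07-fold lower in vitamin cells of replicate 1, 1.89-fold higher in those of replicate 2 and 1.34-fold higher in those of replicate 3. The mean log2 ratio was -0.09 ± 1.34 (SD, n = 3; 95% confidence interval -1.57 to 1.39; unadjusted p = 0.874 by limma). Without replicate 1, on 2 ratios from 1 slide, it was 0.67 (limma, unadjusted p = 0.0381, adjusted p = 0.757). In that setting 1712 of 26714 probes had an unadjusted p under 0.05 by limma.

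The comparison asks whether the vitamins changed the transcripts of the class II pathway in granulosa cells. By limma with Benjamini-Hochberg adjustment over all probes, 0 of the 10 tested genes passed (adjusted p = 1.00 for each), and neither did any of the 26713 probes (0%). At an unadjusted p under 0.05 the counts were 0 of 10 genes and 1245 probes (4.66%). The 10 genes had a median mean log2 ratio of -0.35, with 9 below 0, against a median of 0.01 over all probes tested, of which 48.6% were below 0. Without replicate 1, and so on the slide of replicates 2 and 3 alone, 7 of the 10 changed sign and their median was 0.71. The intervals were wide: their median half-width was 1.96 log2 units for the 10 genes, against 0.53 over all probes. A mean difference of several fold in either direction is therefore not excluded for BOLA-DRA, BOLA-DRB3, BOLA-DQB, BOLA-DYB and BOLA-DMB.

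**Figure D3:**
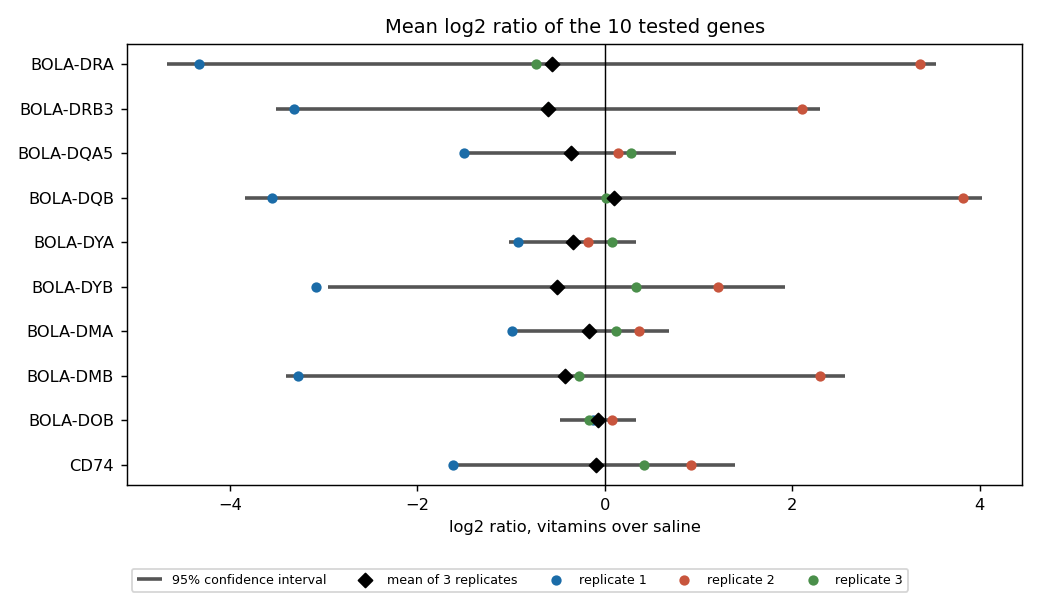
Mean log2 ratio of vitamins over saline (black diamonds) of the 10 tested genes with the 95% confidence interval from limma (grey bars) and the 3 replicate ratios (coloured points). Every interval includes 0, from -0.48 to 0.34 for BOLA-DOB up to -4.67 to 3.54 for BOLA-DRA.

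By sign, 0 of the 10 genes kept 1 sign in all 3 replicates, where 23.6% of all probes tested did (11.9% above 0 and 11.7% below 0). In replicate 1, 7 of 10 were below -1, against 7.01% of all probes. In replicate 2, 5 of 10 were above 1, against 5.41%, and in replicate 3, 0 of 10 were beyond 1 in either direction, against 2.91%. The 5 genes that were both below -1 in replicate 1 and above 1 in replicate 2 were BOLA-DRA, BOLA-DRB3, BOLA-DQB, BOLA-DYB and BOLA-DMB. This count was chosen after the values were seen, and 1.39% of all probes met it.

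The replicate ratios were set against the agreement of dye-swapped arrays, a test chosen after the values were seen. The ratios of a gene ranged over 0.24 log2 units between replicates for BOLA-DOB, up to 7.69 for BOLA-DRA, while the widest gap between the arrays of a pair ran from 0.05 for BOLA-DYB to 0.81 for BOLA-DRB3. By limma's moderated F test over the 6 arrays, with a dye term, 9 of 10 genes differed between replicates, with adjusted p from 9.3e-12 for BOLA-DRA to 0.0058 for BOLA-DYA. BOLA-DOB did not pass (adjusted p = 0.665). Across all probes 43.6% passed, so such differences between replicates were common on these arrays. The error of this test is the spread between technical arrays, and the pairs were themselves chosen for their agreement.

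Over all 3 replicates, the spread was wider among the saline samples. The 3 saline levels ranged more widely than the 3 vitamin levels for all 10 genes, against 47.7% of all probes. They spanned more than 2 log2 units for 6 genes, against 4.9% of all probes. For 5 genes (BOLA-DRA, BOLA-DRB3, BOLA-DYB, BOLA-DMB and CD74) the saline levels spanned more than 2 log2 units and the vitamin levels less than 1, against 1.65% of all probes. The saline sample of replicate 1 was the highest of the 3 saline samples for all 10 genes, against 37.1% of all probes, and the highest of all 6 samples for all 10, against 18.3%. The saline sample of replicate 2 was the lowest saline sample for 7 genes, against 27.6%. In 0 of 10 genes did the vitamin samples all lie above the saline samples (2.87% of all probes) or all below them (3.07%). These counts were chosen after the values were seen. Without replicate 1, the saline range was the wider one for 5 of 10 genes, against 43.3% of all probes, which is near that background. Without replicate 2 it was the wider one for 9, against 52.4%. For BOLA-DRA the levels of replicates 2 and 3 spanned 0.82 log2 units over the vitamin samples, against 3.27 over the saline samples. Levels in single channels depend more on array effects than ratios do, though all 10 genes kept the wider saline range with no normalization between arrays and with quantile normalization. The count of 5 genes with a saline span over 2 and a vitamin span under 1 was less stable. It fell to 3 with no normalization between arrays (1.67% of all probes) and stayed at 5 with quantile normalization (1.74%). Without replicate 1, 2 or 3 it was 3 (0.131%), 6 (1.79%) or 5 (2.36%).

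Likeness to CD74 was measured as Pearson's r over the 12 readings of normalised log2 intensity, each centred on its dye. The readings come from 6 RNA samples and share arrays, so r is a description. BOLA-DYB was the most like CD74 of the set (r = 0.97), followed by BOLA-DYA (0.91), BOLA-DRB3 (0.90), BOLA-DQA5 (0.88) and BOLA-DRA (0.87). BOLA-DQB (0.83), BOLA-DMB (0.83) and BOLA-DMA (0.80) came after them, and BOLA-DOB was least like it (0.46). Of the 10900 other genes compared, the 10 most like CD74 were MARCHF3, CTSF, GLUL, MAN1A1, SPARCL1, CD55, EMILIN2, AP1B1, METRNL and PLEKHB2, with r from 0.984 to 0.989. In this order BOLA-DYB had rank 37, BOLA-DYA 281, BOLA-DRA 557 and BOLA-DOB 2730. Most of this likeness rested on replicate 1. Over the 8 readings of replicates 2 and 3, r was 0.96 for BOLA-DYB and 0.87 for BOLA-DQB, but -0.03 for BOLA-DYA, 0.40 for BOLA-DRB3, 0.51 for BOLA-DRA and between -0.15 and 0.56 for the other 4. The 10 other genes named had r from 0.870 to 0.976 there, and ranks from 39 to 744.

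A ratio below 0 in replicate 1 and above 0 in replicate 2 was found in 9 of the 10 tested class II genes and CD74. Of all probes tested, 26.1% had it. This pattern was taken from the ratios of these genes after they were seen, so their own count is no support for it. Its counts in the gene lists that follow are descriptions beside that share. Of 6 measured regulators of class II transcription 0 passed in either direction and 0 had this pattern, a count too small to set apart from that share. RFX5, a subunit of the complex that binds class II promoters, had replicate ratios of -0.34, -0.02 and -0.15. RFXANK, another subunit of that complex, had 0.51, 1.02 and 0.50 (unadjusted p = 0.0187 by limma), and NFYB, a CCAAT-binding subunit, -0.93, -0.38 and -0.91 (unadjusted p = 0.0149 by limma). The CIITA transcript was not measured here.

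Of the genes of class II loading and traffic, 15 were measured, 0 passed in either direction, and 12 were below 0 in replicate 1 and above 0 in replicate 2, against 26.1% of all probes. Cathepsin S (CTSS), the protease that trims the invariant chain, had replicate ratios of -6.08, 2.85 and -0.45. Legumain (LGMN), an asparaginyl endopeptidase of the same compartment, had -5.50, 2.86 and 0.48. Their levels followed the same samples: CTSS was at 8.92, 11.52 and 11.25 log2 units in the vitamin samples, against 15.00, 8.67 and 11.70 in the saline samples. IFI30, a lysosomal thiol reductase and the member of lowest p below 0, did not share the pattern (-0.14, -0.75 and -0.09), nor did CST3, an inhibitor of cysteine proteases with the lowest p above 0 (0.09, 0.84 and 1.37).

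In interferon gamma signalling, which induces CIITA, 8 genes were measured and 0 passed in either direction; 3 had the pattern, against 26.1% of all probes. The receptor chain IFNGR1 had ratios of -0.95, 0.78 and -0.18, and IRF1, a transcription factor of that response, 0.24, -0.01 and -0.02. JAK2, a receptor-bound kinase, came nearest to the threshold (-0.65 ± 0.15, SD, n = 3; limma, unadjusted p = 0.0113, adjusted p = 0.979), and SOCS1, a feedback inhibitor, had 1.01, 0.78 and -0.46. IFNG itself was below the detection filter.

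Of 16 measured genes of class I presentation 0 passed in either direction, and 12 were below 0 in replicate 1 and above 0 in replicate 2, against 26.1% of all probes. The list's median was -0.47 in replicate 1, 1.08 in replicate 2 and 0.11 in replicate 3. B2M, the light chain of class I, had ratios of -3.59, 2.75 and -0.07. The members of lowest p were PSMB10, an immunoproteasome subunit (0.65, 1.79 and 0.61), above 0 and PDIA3, a chaperone (0.02, -0.08 and -0.35), below 0. TAP1 was below the detection filter. Of the 6 measured genes of costimulation and T cell contact, 0 passed and 3 had the pattern (26.1% of all probes), and the genes of lowest p were CD4, a T cell coreceptor (-1.15, 0.13 and -0.21), below 0 and PDCD1LG2, a ligand of the PD-1 receptor (0.06, -0.07 and 0.21), above it.

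**Figure D4:**
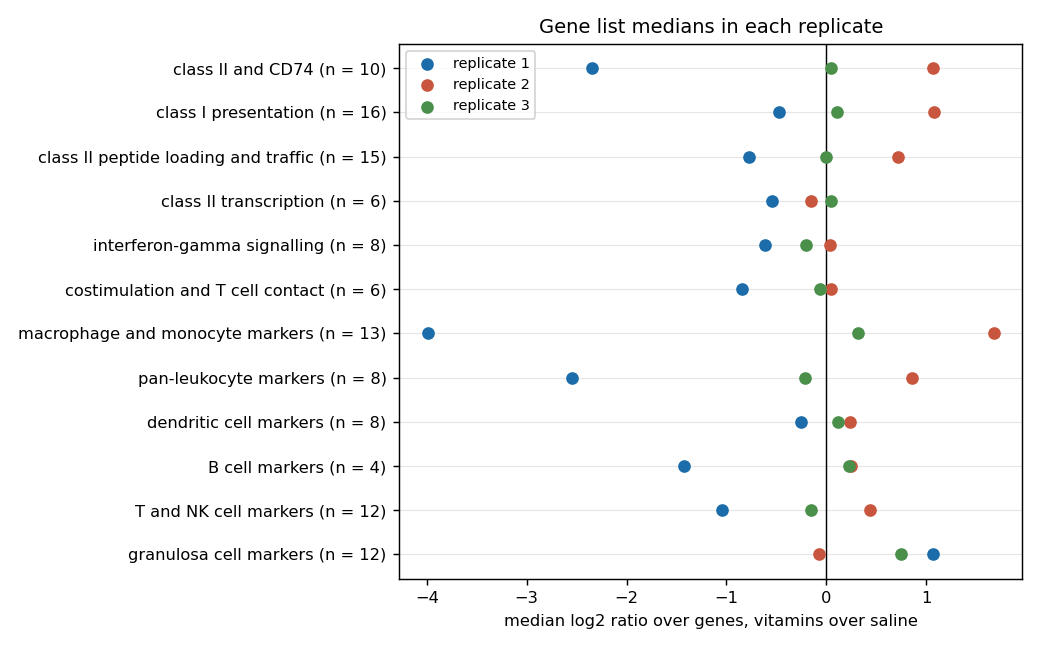
Median log2 ratio of vitamins over saline (horizontal axis) in each replicate (colours) for the tested class II genes with CD74 and for 11 gene lists; n is the number of measured genes. For the class II genes and CD74 the medians are -2.35, 1.07 and 0.05 in replicates 1, 2 and 3, and for macrophage and monocyte markers -3.99, 1.68 and 0.32.

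The list medians of macrophage and monocyte markers and of pan-leukocyte markers had the same order of replicates as the class II median. Single markers differed: FCER1G, an Fc receptor chain on the macrophage list, had ratios of -0.21, -0.25 and -0.08. Of 18 macrophage and monocyte markers 13 were measured and 10 were below -1 in replicate 1 and above 1 in replicate 2, against 1.39% of all probes. Their summed intensity was 3414, 7822 and 6364 in the vitamin samples, against 66204, 2100 and 4650 in the saline samples. Saline replicate 1 was high and saline replicate 2 low, as for the class II genes, whose own sum was 8537, 11078 and 6127 in the vitamin samples, against 87611, 2546 and 8265 in the saline samples. CD68, a lysosomal protein of macrophages, had ratios of -4.39, 1.99 and 0.69. C1QC (-1.62, 1.68 and 0.68) and MSR1 (-3.60, 0.14 and -0.28) had the lowest p on either side of 0, and CD14, CSF1R and ITGAM were below the detection filter. Of 12 pan-leukocyte markers 8 were measured, 3 of them with ratios beyond 1 in these directions, and the sum was 3267, 3337 and 2304 in the vitamin samples, against 39030, 1412 and 2845 in the saline samples. PTPRC, the leukocyte phosphatase CD45, had ratios of -0.14, 0.40 and -0.09, and CORO1A, an actin-binding protein of leukocytes, -2.33, 0.55 and -0.27. In these bulk samples, fewer cells of a type and less RNA per cell cannot be told apart. The part of these cells in the class II ratios was not tested.

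**Figure D5:**
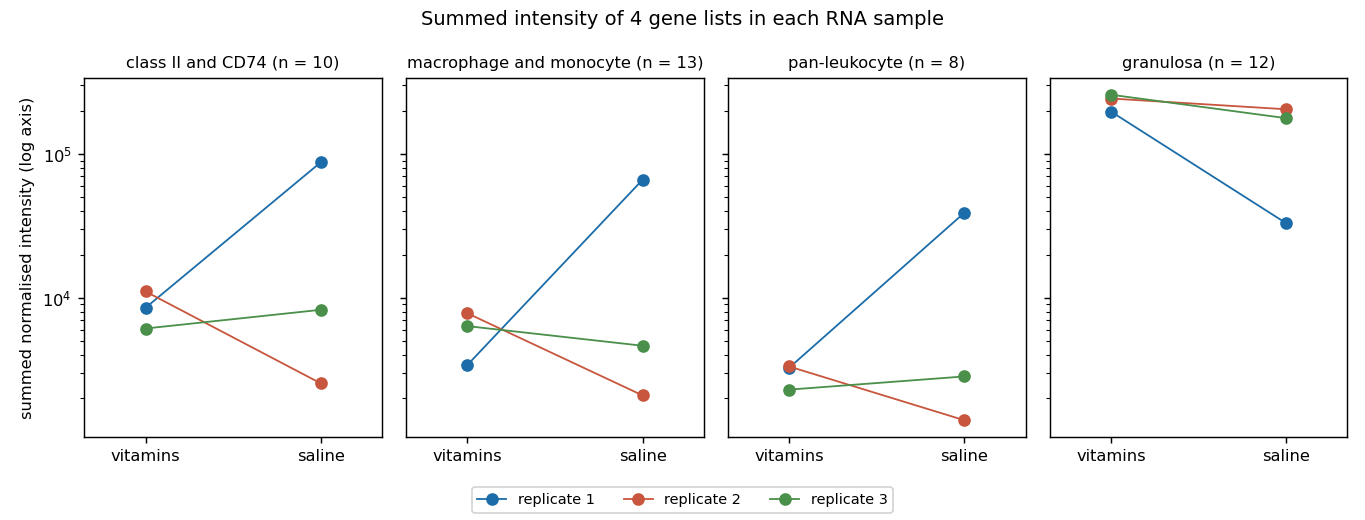
Summed normalised intensity (logarithmic vertical axis) of 4 gene lists in the vitamin and saline RNA of each replicate, with lines joining samples hybridised together; n is the number of measured genes. The class II and CD74 sum of saline replicate 1 is 87611, against 2546 to 11078 in the other samples, and the granulosa sum of that sample is 33033, against 177408 to 258215.

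Other antigen-presenting and lymphoid markers were also measured. Of 12 B cell markers 4 were measured, with CD79A and 5 others below the detection filter; MS4A1, a B cell surface protein, had ratios of -1.91, -0.17 and 0.22. The sum of these 4 was 848, 907 and 2403 in the vitamin samples, against 20817, 689 and 751 in the saline samples. CR2, a complement receptor also known as CD21, had ratios of -6.03, 1.02 and 3.04 and was named after its values were seen. It carried most of the sum in saline replicate 1 and vitamin replicate 3 only. Without CR2 the sum was 550, 566 and 625 in the vitamin samples, against 1233, 521 and 535 in the saline samples. Of 14 dendritic cell markers 8 were measured, and 5 were below 0 in replicate 1 and above 0 in replicate 2, against 26.1% of all probes. Below -1 in replicate 1 and above 1 in replicate 2 were 0 of the 8, against 1.39% of all probes. Their sum lay between 2090 and 5774 in vitamin samples and between 1656 and 12121 in saline samples. FLT3, the receptor of dendritic cell progenitors, had ratios of -0.06, -0.24 and -0.36, and CD1E, a lipid-antigen protein of dendritic cells, -3.57, 0.39 and -1.17, while FSCN1, an actin-bundling protein, had -0.55, 2.94 and 0.71. Of 17 T and NK cell markers 12 were measured. A ratio below 0 in replicate 1 and above 0 in replicate 2 was found in 9, against 26.1% of all probes. Only 1 was below -1 in replicate 1 and above 1 in replicate 2, against 1.39%. CD3E, a chain of the T cell receptor complex, had ratios of -0.86, 0.83 and -0.29, and GZMB, a granule protease, 1.70, -0.33 and -0.27. The sum of these markers lay between 3589 and 12704 in vitamin samples and between 4189 and 8243 in saline samples, and without GZMB between 2064 and 3105 in vitamin samples and between 2003 and 5009 in saline samples.

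Granulosa markers were on balance higher in vitamin cells of replicate 1, where the class II genes were lower. Their median log2 ratio over 12 genes was 1.07, -0.07 and 0.75 in replicates 1, 2 and 3. Of the 12, 1 had a ratio below 0 in replicate 1 and above 0 in replicate 2, against 26.1% of all probes. In replicate 2, where 9 of the 10 class II genes and CD74 were higher in vitamin cells, the granulosa sum was 242990 in the vitamin and 204551 in the saline sample, and without INHBA and INHA it was 138421 in the vitamin and 111095 in the saline sample. AMH, a hormone of granulosa cells, had ratios of 0.94, 0.85 and 1.23, and GJA1, a gap junction protein, -0.48, -0.11 and 0.07. The 5 measured markers of epithelium summed to 52026, 60843 and 2089 in the vitamin samples, against 67717, 1180 and 1655 in the saline samples. KRT8, a keratin, carried most of the 3 high sums, with ratios of -0.19, 6.87 and -0.09. Without KRT8 the sum was 2866, 10152 and 1325 in the vitamin samples, against 11553, 746 and 843 in the saline samples. A ratio below 0 in replicate 1 and above 0 in replicate 2 was found in 4 of the 5, against 26.1% of all probes. In 3 of them the ratios were below -1 and above 1, against 1.39%. The part of such cells in the class II ratios was not tested. Of 9 measured theca and stroma markers, 4 were below 0 in replicate 1 and above 0 in replicate 2, against 26.1% of all probes. Below -1 and above 1 were 2 of them, against 1.39%: PDGFRA (-2.05, 1.74 and 0.09) and COL3A1 (-1.07, 1.11 and -2.84). Their part in the class II ratios was not tested. The lowest p above and below 0 belonged to INSL3 (0.26, 0.23 and 0.29, highest raw intensity 360) and COL1A2 (-2.40, 0.33 and -2.09). Among 3 endothelial markers it belonged to TIE1 (0.23, -0.02 and -0.11) and TEK (-0.59, -0.03 and -0.21). In each of the marker lists, immune cells included, 0 genes passed in either direction.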

How the data were processed

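RNA was isolated with a PicoPure kit, amplified (RiboAmp HSPlus) and coupled to Cy3 or Cy5 by ULS, per the labels' protocols. Per the file headers, the deposited scanner files give median pixel intensities of spots and of local background; no source used here names scanner or software. Log2 ratios that the authors deposited served only as an alternative. Their medians were 0.001, 0.015, -0.018, -0.007, -0.003 and 0.005 on arrays 1 to 6, and r with the ratios computed here, over all gene probes, was 0.95, 0.916, 0.926, 0.891, 0.826 and 0.815. They thus run as vitamins over saline, centred near 0 and with slopes from 0.633 to 0.973; their background correction, normalization and any shrinkage stay unknown.

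R 4.3.3 and limma 3.58.1 were used. Intensities were corrected with normexp (offset 50) and normalized by loess, with control spots at weight 0; ignored spots (2 to 70 gene probes per array) were left out. A reading counted as detected above the mean plus 2 SD of 153 negative controls, and testing required 6 or more detected readings of 12. The highest raw intensity of a class II probe was 51042. Ratios were turned to vitamins over saline, and dye-swapped arrays averaged. Pairs are not labelled; among matchings of opposite dye orientation, arrays 1 and 2, 3 and 4, and 5 and 6 correlated best (sum 2.46, against 0.731 for the next). Their mean over 3 replicates was tested two-sided with lmFit and eBayes, with Benjamini-Hochberg adjustment over all probes at 0.05. Channel levels used Aquantile between arrays. A gene's brightest tested probe stands for it. The steps were tested on simulated data. The number of biological replicates, 3, limits the precision.

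Symbols come from the platform annotation (1 symbol for 21790 probes, none for 22004, several for 0); 20025 were current in RefSeq, 1524 were updated and 241 kept an older symbol. The genes and lists were chosen with earlier results of these data known. Named are every gene of the set, the gene of lowest p in each direction of each list, some defining genes, and the 10 genes most like CD74. Alternatives covered background, normalization, filters, moderation, slide, units, source, probe choice and replicates.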

Additional observations from a re-analysis of the deposited data

How the results depend on the processing

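Under every alternative run, 0 probes passed the adjusted threshold, with 654 to 3317 at an unadjusted p under 0.05, the highest when the slide was a block. The median log2 ratio of the 10 tested class II genes and CD74 was -0.35, and it lay between -0.73 and -0.17 in the alternatives that keep 3 replicates and between -0.99 and 0.71 without a replicate. With 6 arrays as units, a dye term and the replicate block it was -0.35 as well; same-numbered arrays carry numbers by accession order only, so the block rests on the pairs found from the data, and it changed no call. Of 96 values of single genes under alternatives that keep 3 replicates, 92 kept their sign and 0 passed. The exceptions were BOLA-DQB with median centring (-0.0531), with the slide as a block (-0.82) and in the authors' deposited table (-0.0632), and BOLA-DOB in that table (0.0117). Without a replicate, the range was -2.53 to 1.32 for BOLA-DRA, -1.96 to 0.75 for BOLA-DRB3, -0.68 to 0.21 for BOLA-DQA5, -1.77 to 1.92 for BOLA-DQB and -1.37 to 0.77 for BOLA-DYB. It was -0.43 to 0.24 for BOLA-DMA, -1.78 to 1.01 for BOLA-DMB and -0.60 to 0.67 for CD74, each highest without replicate 1. The count of genes with the wider saline range, chosen after seeing the data, was 5 to 10 of 10 without a replicate, lowest without replicate 1, where 43.3% of all probes had it. BOLA-DMA, BOLA-DOB, BOLA-DQA5, the untested genes and, in replicates 2 and 3, BOLA-DYA lay close to the negative controls, which limits what a ratio near 0 shows.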
